A study of Mus musculus with 6 samples.

Results

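The mouse receptors for the constant part of IgG were followed here gene by gene through the cells of the fatty liver: the activating receptors Fcgr1, Fcgr3 and Fcgr4, the inhibitory receptor Fcgr2b, the signalling chain Fcer1g and the neonatal receptor FcRn, encoded by Fcgrt. The 6 genes were taken by symbol from the 19349 genes of the count tables, and all 6 symbols were present in each of the 6 libraries. Each was read in endothelial-, macrophage-, monocyte-, neutrophil-, NK cell- and B cell-like cells, and vehicle was compared with ginkgetin within these classes.

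The libraries were single-cell RNA-seq of liver non-parenchymal cells, the cells of the liver other than hepatocytes, from male C57BL/6J mice that were 8 weeks old at the start and received a high-fat diet for 24 weeks to induce non-alcoholic steatohepatitis (NASH). In the last 8 weeks the vehicle group (3 libraries) received vehicle by gavage and the ginkgetin group (3 libraries) was given 10 mg/kg of ginkgetin each day, a biflavone made by plants such as ginkgo. Both groups therefore share the diet, and no chow-fed library entered these comparisons. The labels do not say whether a library is 1 mouse or a pool, so p-values measure the spread between these libraries, which may be partly technical.

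The tables hold whole-number counts of unique molecular identifiers (UMIs, each standing for a captured transcript), with 13128697 to 61796882 UMIs per library over 3577 to 8119 barcodes. After cells with 250 to 5000 detected genes and under 5% mitochondrial UMIs were kept, 27544 of 33168 barcodes remained, 13490 of vehicle and 14054 of ginkgetin. Replicate 3 of both groups stood apart from replicates 1 and 2 in its gene content, and the calls are therefore also given for replicates 1 and 2 only. Libraries shared between 0 and 85 barcodes with each other.

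Fc gamma receptors bind IgG in immune complexes and on opsonized particles. The activating receptors pass their signal through the Fcer1g chain, whose immunoreceptor tyrosine-based activation motif (ITAM) recruits Syk. Fcgr2b instead carries an inhibitory motif (ITIM) that recruits phosphatases such as Inpp5d. In the liver, sinusoidal endothelial cells use Fcgr2b to take small immune complexes from the blood, Kupffer cells and monocytes use the activating receptors for phagocytosis, and FcRn returns internalized IgG and albumin to the circulation.

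The coding stretches of the activating motif of Fcer1g and the inhibitory motif of Fcgr2b are shown as background. No comparison below uses their bases. They were read from the coding exons of the GENCODE M21 transcripts on GRCm38, the build named in the submitters' processing notes, and capitals mark the tyrosine codons of each motif.
Fcer1g ITAM: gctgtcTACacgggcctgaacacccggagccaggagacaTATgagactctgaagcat
Fcgr2b ITIM: aatacgatcaccTACtcacttctcaagcat
The Fcer1g stretch covers codons 63 to 81 of 86 and lies at chr1:171229883-171230078 on the minus strand, split by an intron. The Fcgr2b stretch covers codons 315 to 324 of 340 and lies in a coding exon at chr1:170961065-170961094 on the minus strand. Among the 6 genes the ITAM spacing was found in the codons of Fcer1g and of no other member, while the shorter ITIM spacing also occurred in Fcgr1, Fcgr4, Fcer1g and Fcgrt, so that match alone does not set Fcgr2b apart.

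Fcgr2b (chr1:170958617-170976547), Fcgr4 (chr1:171018920-171029761), Fcgr3 (chr1:171051174-171064935) and Fcer1g (chr1:171229572-171234365) are neighbours on chromosome 1, whereas Fcgr1 lies at chr3:96282909-96293969 and Fcgrt at chr7:45092990-45103851. Fcgr2b and Fcgr3 are near-copies over part of their length. Their transcripts share an identical run of 129 bases and 166 windows of 50 bases, which is 4.96% of the windows of Fcgr2b and 12.8% of those of Fcgr3. No window was shared between the last 500 bases of Fcgr2b and the last 500 bases of Fcgr3, where a 3' library takes most of its reads. A window in the last 500 bases of 1 transcript that lies elsewhere in the other was not searched for. The run of 129 bases ends 3014 bases before the end of Fcgr2b and 906 bases before that of Fcgr3. No other pair of members shared a run longer than 14 bases. Fcgr2b and Fcgrt overlap an antisense gene, and how the counting treated strand and shared reads was not given in the sources used here.

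Cell classes were rebuilt from the counts, since no cell annotation was used here, and the 6 genes were left out of the clustering. A cluster was called X-like when at least 3 markers of a class were detected in it. A marker counted when found in 25% or more of the cluster's cells and 2-fold over the rest. Examples are Stab2, Clec4g and Kdr for endothelial-like and Clec4f, Vsig4 and C1qa for macrophage-like cells. A cluster stayed unnamed when another class tied with the best one or had more markers among the leading genes, or when cell-cycle genes led. The cluster led by Edn1, Adgrg6 and Vwf, of 774 cells with 4 endothelial markers, was therefore outside the endothelial-like class. Cluster 19 of replicate 3, with Vwf among its leading genes, was inside it. Vehicle libraries held 1954 endothelial-like cells and ginkgetin libraries 5240. Endothelial-like cells were 14.0 ± 3.92% of kept vehicle cells and 35.9 ± 5.49% of ginkgetin cells (SD, n = 3 libraries per group), macrophage-like cells 22.3 ± 3.28% and 6.95 ± 6.96%, and monocyte-like cells 13.9 ± 0.64% and 3.47 ± 0.13%. The macrophage-like share in ginkgetin was 2.81, 3.05 and 14.99%, so replicate 3 carried most of that mean. In each of these 3 classes the exact two-sided permutation p was 0.1, the smallest that 3 against 3 libraries can give. Clusters that kept no name held 11.6 ± 3.05% and 10.3 ± 0.74% of cells. Doublets were not removed, because the doublet caller marked only 0.0286 to 0.192% of cells per library.

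Several properties of the classes differed between the groups along with the receptor values. Macrophage-like cells had a median depth of 9398.5, 7589 and 16283 UMIs in vehicle replicates 1, 2 and 3 and of 2319, 1918 and 2331 UMIs in the ginkgetin replicates. Their Kupffer-like members, named from Clec4f, Vsig4, Timd4, Marco, Cd5l and Folr2, also came from different clusters: cells of vehicle replicates 1 and 2 from a cluster led by Fabp7 and Folr2, those of vehicle replicate 3 from a cluster led by Mmp12 and Clec4f, and those of ginkgetin from clusters led by Marco or by Cd163. The other macrophage-like cells, NAM-like by the NASH-associated macrophage markers Trem2, Gpnmb, Cd9, Spp1 and Fabp5, numbered 690, 403 and 694 in vehicle but 9, 5 and 37 in ginkgetin, so the macrophage-like sum of the groups differs in makeup. Transcripts of the other main class were also present, and the level of a receptor that they correspond to was computed as their summed level times the ratio of the receptor to the same markers in the other class of the same library. The summed level of the 8 endothelial markers in Kupffer-like cells was 341 to 388 CPM (UMIs per 1000000 UMIs of the class in that library) in vehicle and 1138 to 2053 CPM in ginkgetin, with 8 of 8 markers higher and none at 0. The 8 macrophage markers in these Kupffer-like cells summed to 29332 to 33740 CPM in vehicle and 19474 to 27040 CPM in ginkgetin. The groups did not overlap, with 3 of 8 higher in ginkgetin. Markers of neutrophil, T cell, NK cell, plasmacytoid dendritic, cholangiocyte and erythroid classes were also higher there in ginkgetin, without overlap. Those of the monocyte, B cell, plasma cell, dendritic, mast cell, stellate and hepatocyte classes overlapped. Neutrophil markers summed to 48.5 to 78.8 CPM in vehicle and 120 to 395 CPM in ginkgetin, and T cell markers to 3.19 to 10.2 and 30.3 to 63.2 CPM. The summed 8 macrophage markers in endothelial-like cells went the other way, at 202 to 390.05 CPM in vehicle and 55.6 to 154 CPM in ginkgetin. The part of depth, cluster makeup, the level of macrophage markers and these transcripts in the receptor differences was not tested. Only some of these values are repeated beside the results below.

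In vehicle libraries each gene had its own order of classes, read within a gene and never between genes. Fcgr1, the high-affinity receptor that binds monomeric IgG, stood at 335 ± 20.7 CPM in macrophage-like cells, above monocyte-like cells at 165 ± 17.9 CPM and dendritic-like cells at 20.6 CPM, with no overlap between these neighbours. Fcgr3, a low-affinity receptor for immune complexes, shared the first 2 classes of this order, from 572 ± 61.5 CPM in macrophage-like to 360.2 CPM in monocyte-like and 70.2 CPM in NK cell-like cells, the last overlapping dendritic-like cells at 39.97 CPM. Fcgr4, which binds IgG2a and IgG2b, stood at 402 ± 90.0 CPM in macrophage-like and 104 CPM in monocyte-like cells.

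The other members had wider or different ranges. Fcgr2b stood at 1631 ± 197 CPM in endothelial-like cells, above monocyte-like cells at 268 ± 28.1 CPM and then B cell-like at 96.9 ± 25.4 CPM and macrophage-like cells at 85.8 ± 27.4 CPM, which overlapped each other. Fcer1g was present in macrophage-like cells at 3573 ± 665 CPM and in monocyte-like cells at 3348 CPM, which overlapped, then in NK cell-like cells at 2324 ± 294 CPM and plasmacytoid dendritic-like cells at 1516 CPM. Fcgrt stood at 382 ± 19.4 CPM in endothelial-like cells, above stellate-like cells at 169 CPM, macrophage-like cells at 115 ± 2.24 CPM and dendritic-like cells at 106 CPM, while monocyte-like cells at 32.3 CPM overlapped B cell-like cells at 30.5 CPM. Fcgr2b and Fcgrt thus shared the endothelial-like class as their highest, and the activating receptors shared the macrophage-like class.

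**Figure D1:**
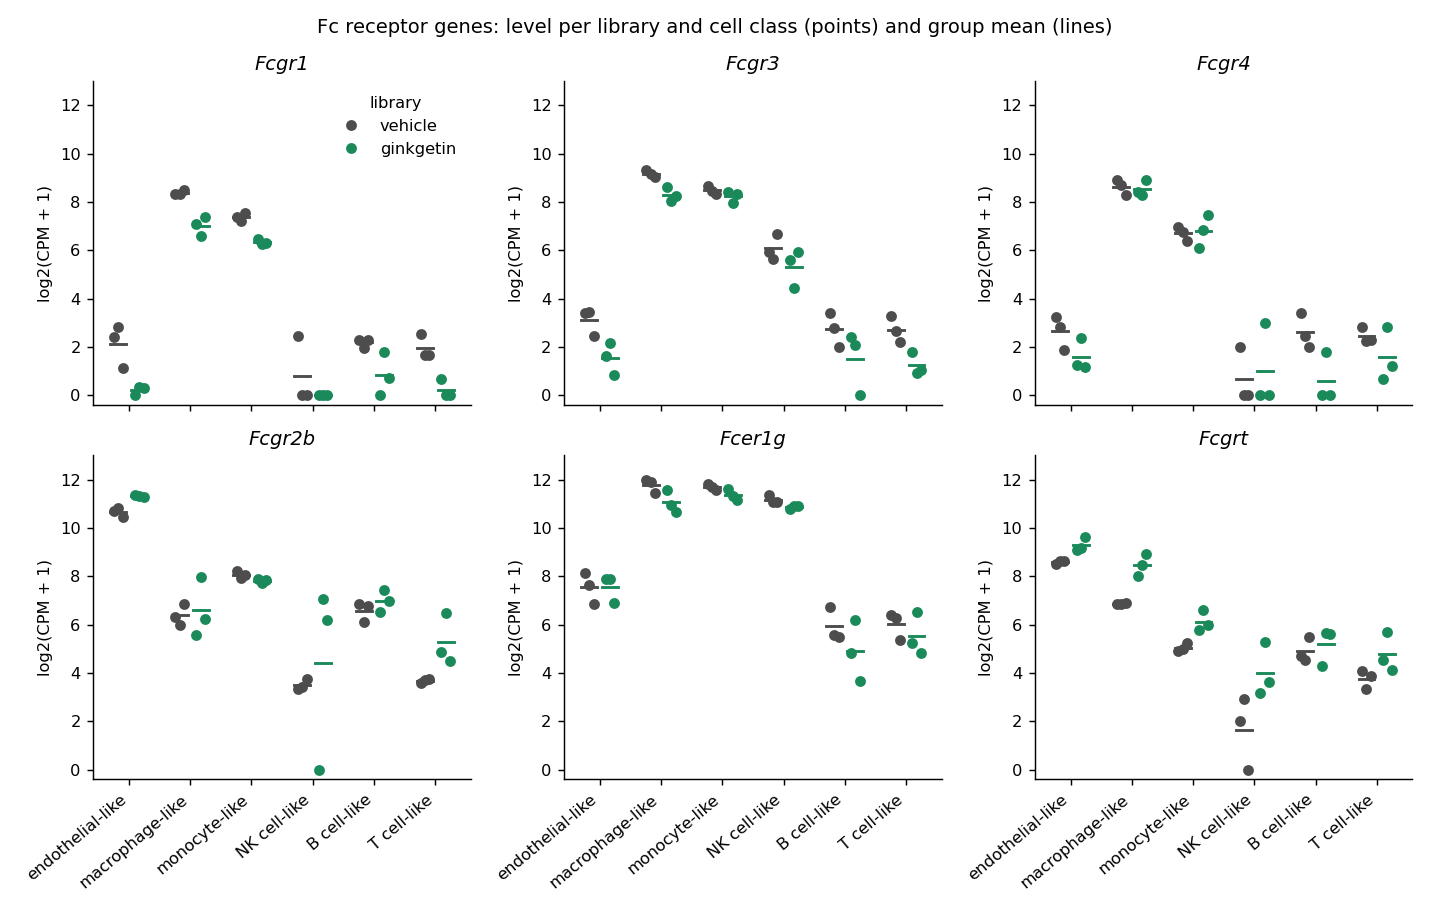
Level of the 6 genes as log2(CPM + 1) on the vertical axis in endothelial-, macrophage-, monocyte-, NK cell-, B cell- and T cell-like cells, with a point for each library and a line for each group mean. Fcgr2b and Fcgrt are highest in endothelial-like cells, with vehicle means of 1631 and 382 CPM, and the activating receptors in macrophage-like cells.

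Genes whose level ran most like each member over the same cells were read as a description, by Pearson's r of log2(CPM + 1) over 72 library-by-class sums of 13 classes. These sums share libraries and depth, so no test was made. Fcgr1 was most like Pla2g7 (r = 0.93), Clec4b1 (0.92) and Gm5150 (0.92), and Fcgr4 most like Gm5150 (0.92), Pla2g7 (0.92) and Fcgr1 itself (0.91). Fcgr3 was most like Cx3cr1 (0.89), Clec4b1 (0.88) and Clec4a2 (0.87). Fcgr2b ran most like the endothelial genes Nrp2 (0.82), Plxnd1 (0.81) and Cd300lg (0.79), Fcgrt most like Id3 (0.88), Slc29a1 (0.84) and Lrp5 (0.84), and Fcer1g most like Tyrobp (0.89), another ITAM adaptor, then Capzb (0.83) and Lair1 (0.81).

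In macrophage-like cells, Fcgr1 and Fcgr3 fell with ginkgetin, Fcgrt rose, and Fcgr4, Fcgr2b and Fcer1g did not pass the test. UMIs were summed per library and class, fitted over all genes with edgeR's quasi-likelihood test, and a gene was called when its p, adjusted by Benjamini-Hochberg over all genes, was under 0.05 and its fold over 2. All 6 members passed the filter on low counts in this class and 3 of 6 were called, beside 12.1% of the 10129 genes tested. With replicate number as a block, 4 of 6 members were called beside 17.1% of genes, the addition being Fcer1g.

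Fcgr1 was measured at 324, 321.5 and 359 CPM in macrophage-like cells of vehicle replicates 1, 2 and 3, and at 133, 96.0 and 167 CPM in those of ginkgetin. Every vehicle library lay above every ginkgetin library. The log2 fold change of Fcgr1 was -1.82 ± 0.24 (SE, n = 3 per group, edgeR adjusted p = 0.011), -1.84 with the replicate block (adjusted p = 0.000232) and -1.95 in replicates 1 and 2 only (adjusted p = 0.0118). Macrophage-like cells of the groups differed in makeup, so Fcgr1 was also read in Kupffer-like cells alone, where it was 327, 329 and 322 CPM in vehicle and 116, 94.8 and 149 CPM in ginkgetin. This difference was -1.87 ± 0.23 (adjusted p = 0.0233), and -2.07 in replicates 1 and 2 only (adjusted p = 0.00558). The Kupffer-like call of Fcgr1 was lost under the UMI filter that the study's methods state (-1.79, adjusted p = 0.105), a fit that held only 2 vehicle libraries because replicate 3 had 2 such cells left, and in 4 of 6 fits without 1 library, all but those without replicate 3 of either group. Clusters that held 10 or more cells of both groups gave differences of varied size: Fcgr1 was 155 CPM in 17 cells of vehicle replicate 2 against 116 and 98.7 CPM in ginkgetin replicates 1 and 2 in the cluster led by Cd163 and Cxcl13, where the 10 cells of ginkgetin replicate 3 had none. In the cluster led by Ms4a7 and Pf4 Fcgr1 was 348 and 356 CPM in vehicle replicates 1 and 2 against 216 and 210.2 CPM in ginkgetin, and in that led by Cd300c2 it was 384 against 262 CPM in replicate 3. In the cluster led by Fabp7 and Folr2 it was 309 and 306 CPM against 245 CPM in 17 cells of ginkgetin replicate 2. An unnamed cluster led by cell-cycle genes, in which 8 macrophage markers were detected, held Fcgr1 at 271, 263 and 339 CPM in vehicle and at 61.5 and 95.6 CPM in 10 and 20 cells of ginkgetin replicates 2 and 3. The vehicle NAM-like cells held a similar amount, at 322.5, 317 and 383.5 CPM. Without 1 library at a time Fcgr1 in macrophage-like cells stayed between -1.98 and -1.65, and its call was lost when replicate 2 of either group or vehicle replicate 1 was left out.

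Fcgr3 was measured at 637, 565 and 515 CPM in vehicle macrophage-like cells and at 394, 264 and 301 CPM in ginkgetin, again without overlap. Its log2 fold change was -1.30 ± 0.29 (edgeR adjusted p = 0.030), -1.33 with the replicate block (adjusted p = 0.000997) and -1.30 in replicates 1 and 2 only (adjusted p = 0.0265). In Kupffer-like cells Fcgr3 was 677, 587 and 496 CPM in vehicle and 341, 257 and 265 CPM in ginkgetin, a difference of -1.44 ± 0.30 (adjusted p = 0.0350), and of -1.49 in replicates 1 and 2 only (adjusted p = 0.009997). The Kupffer-like call of Fcgr3 was lost under the UMI filter (-1.33, adjusted p = 0.192, again with 2 vehicle libraries) and in 5 of 6 fits without 1 library, all but that without vehicle replicate 3. Within the cluster led by Cd163 and Cxcl13 Fcgr3 overlapped, at 327.5 CPM in vehicle replicate 2 against 385 and 246 CPM in ginkgetin replicates 1 and 2. In the cluster led by Cd300c2 it was 531 against 514 CPM in replicate 3. The vehicle values of Fcgr3 were higher in the cluster led by Ms4a7 and Pf4, at 620.4 and 599.6 CPM in replicates 1 and 2 against 442 and 437 CPM in ginkgetin, and in that led by Fabp7 and Folr2, at 646 and 549 CPM against 290.06 CPM in 17 cells of ginkgetin replicate 2. Fcgr3 was the less stable of these falls: in macrophage-like cells it was not called when cells were kept by 250 to 5000 UMIs as the study's methods state (-1.17, adjusted p = 0.115), when cells were named each by its own markers (-1.03, adjusted p = 0.0957), or in 4 of the 6 fits without 1 library, all but those without vehicle replicate 3 or ginkgetin replicate 1.

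Fcgr4 overlapped between the groups in the same cells. It was measured at 486, 413 and 307 CPM in vehicle macrophage-like cells and at 338, 314 and 474 CPM in ginkgetin, and ginkgetin replicate 3 lay above 2 of the vehicle libraries. The log2 fold change of Fcgr4 was -0.59 ± 0.27 (edgeR adjusted p = 0.173). In Kupffer-like cells Fcgr4 was 589.9, 550.4 and 408 CPM in vehicle and 364, 320.1 and 495 CPM in ginkgetin, with overlap (-0.84 ± 0.28, adjusted p = 0.102). The overlap came from replicate 3, which lay higher in ginkgetin, while replicates 1 and 2 lay higher in vehicle. In replicates 1 and 2 only Fcgr4 was called in Kupffer-like cells (-1.15, adjusted p = 0.0121), as it was without vehicle replicate 3 (-1.07, adjusted p = 0.0482). Whether the change of Fcgr4 differs from that of Fcgr1 was not tested.

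The scaling of the libraries moved these values. The edgeR scaling factors (trimmed mean of M values, TMM) shifted the ginkgetin libraries by 0.47 on the log2 scale relative to vehicle in macrophage-like cells and by 0.42 in Kupffer-like cells. With library totals alone, the median log2 fold change of all genes was 0.53 in macrophage-like cells in place of 0.02, and the calls split into 1746 higher and 176 lower in ginkgetin in place of 631 higher and 599 lower. In Kupffer-like cells the split was 932 higher and 103 lower in place of 302 and 309. Under these totals Fcgr1 was still called in macrophage-like cells (-1.33, adjusted p = 0.0155), and Fcgr3 at -0.84 (adjusted p = 0.0359) stayed below a fold of 2. Both genes kept their direction and lay below the median of all genes.

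Shares of cells with at least 1 UMI were compared after every cell was thinned to 1000 UMIs, because the groups differ in depth. In macrophage-like cells the thinned share for Fcgr1 was 26.7 ± 1.92% in vehicle and 10.6 ± 1.74% in ginkgetin, and for Fcgr3 40.8 ± 2.86% and 23.7 ± 7.07%. For Fcgr4 it was 31.6% and 32.1%. The exact permutation p was 0.1 for Fcgr1 and Fcgr3, the smallest possible, and 1 for Fcgr4. The T cell-like cells, taken as background for receptors that T cells lack, had a thinned share of at most 0.512% for Fcgr1 and 0.899% for Fcgr3 in any library, at median depths of 2628 to 6338 UMIs before thinning. Thinning left out 2 cells of vehicle replicate 3 and 58 of ginkgetin replicate 3.

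Monocyte-like cells showed Fcgr1 lower in ginkgetin as well, but the test did not pass the threshold. Fcgr1 was 163, 148 and 184 CPM in vehicle and 86.6, 75.1 and 77.8 CPM in ginkgetin, without overlap. Its log2 fold change was -1.13 ± 0.22 (edgeR adjusted p = 0.208), and -1.15 ± 0.19 with the replicate block, where it was called (adjusted p = 0.0309). In the group-only fit 0 of 6 members and 0 of 8225 genes, 0%, were called, while 1111 genes had an unadjusted p under 0.05 and DESeq2 called 123 genes, Fcgr1 the single member among them (-1.19, adjusted p = 0.000205). With the block, 1 of 6 members was called beside 1.52% of genes, and in replicates 1 and 2 only Fcgr1 stood at -0.99 (adjusted p = 0.119). The kinds of monocyte were not in the same proportion, with 79, 54 and 66 patrolling-like cells of 852, 477 and 543 in vehicle and 26, 44 and 44 of 126, 238 and 122 in ginkgetin. In classical monocyte-like cells alone Fcgr1 was not called by the group-only fit (-0.80, adjusted p = 0.361), the block (-0.83, adjusted p = 0.133) or DESeq2 (-0.87, adjusted p = 0.101). The cells differed little in depth, with medians of 5682 to 9145 UMIs in vehicle and 4384.5 to 9280.5 UMIs in ginkgetin.

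The other activating receptors of monocyte-like cells overlapped between the groups. Fcgr3 was 405, 353 and 323 CPM in vehicle and 337, 250.5 and 322 CPM in ginkgetin (-0.34, adjusted p = 0.599). Fcgr4 was 123, 107 and 83.4 CPM in vehicle and 68.1, 114 and 173 CPM in ginkgetin (0.03, adjusted p = 0.987). Fcgr4 and Fcgr1 ran opposite ways between kinds of monocyte. Patrolling monocyte-like cells, named from Cd300e, Ace, Treml4 and Spn, held Fcgr4 at 503, 412 and 380 CPM in vehicle and 355, 308 and 569.5 CPM in ginkgetin. Classical monocyte-like cells, named from Ly6c2, Chil3 and Ccr2, held 52.9, 55.4 and 55.3 CPM and 39.2, 92.4 and 35.4 CPM. Every patrolling value of Fcgr4 lay above every classical value. For Fcgr1 the order was turned, with 37.5, 66.8 and 66.5 CPM in vehicle patrolling cells against 165, 142 and 195 CPM in vehicle classical cells. The 2 kinds share libraries and were named by clustering, so no test was made between them, and 607 monocyte-like cells fell in neither.

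Neutrophil-like cells were not tested, because the minimum of 10 cells per library and class left 1 library. Only vehicle replicate 3 held 10 or more, with 29 cells, and the other libraries held between 0 and 9. In those 29 cells Fcgr3 stood at 461 CPM (exact Poisson 95% interval 397 to 533), Fcgr1 at 238 CPM (192 to 291) and Fcgr4 at 134 CPM (100.6 to 176). Fcgr2b stood at 124 CPM (91.9 to 164), Fcer1g at 2744 CPM (2583 to 2913) and Fcgrt at 83.6 CPM (57.6 to 117). Pooled over libraries, Fcgr1 was 218 CPM (178 to 265) in 41 vehicle cells and 32.4 CPM (8.83 to 83.0) in 14 ginkgetin cells, and Fcgr2b 122 CPM (92.5 to 157) and 203 CPM (131 to 299). These intervals cover counting error only and carry no spread between libraries.

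In NK cell-like cells, which use Fcgr3 for antibody-dependent killing, 2 of the 6 members passed the filter on low counts. Fcgr3 was 60.3, 48.9 and 101.4 CPM in vehicle and 47.6, 20.6 and 60.1 CPM in ginkgetin, with overlap (-0.67 ± 0.43, adjusted p = 0.602). Neither member was called by edgeR or DESeq2, neither had an unadjusted p under 0.05, and 0% of 3572 genes were called in this class, where 353 genes had an unadjusted p under 0.05 and DESeq2 called 1. Vehicle replicate 3 held only 16 of these cells, as most of its cells with NK markers were in an unnamed cluster. With the unnamed NK-marker clusters added, Fcgr3 was 42.6, 42.4 and 37.1 CPM in vehicle and 21.3, 13.4 and 34.9 CPM in ginkgetin, without overlap, and still did not pass the test (-0.87 ± 0.33, adjusted p = 0.456).

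Fcgr2b, the inhibitory receptor and the scavenging receptor of the sinusoid, was higher in endothelial-like cells of every ginkgetin library than in those of any vehicle library. It was 1664, 1809 and 1419.8 CPM in vehicle and 2662, 2544 and 2470.3 CPM in ginkgetin, 1631 ± 197 against 2559 ± 96.5 CPM. This is a ratio of means of 1.57. The summed 8 endothelial markers were also higher in this class, at 8871 to 11169 CPM in vehicle and 13425 to 17005 CPM in ginkgetin. They did not overlap, 7 of 8 were higher, and their part in the Fcgr2b difference was not tested. Fcgr2b did not pass the test across all genes (log2 fold change 0.47 ± 0.30, edgeR adjusted p = 0.570), while with the replicate block it had an adjusted p of 0.0375 at 0.49 ± 0.12, under a fold of 2. In replicates 1 and 2 only Fcgr2b stood at 0.41 ± 0.13 (adjusted p = 0.0901). The groups did not overlap for 2 of the 5 members tested in this class in the direction of higher in ginkgetin, Fcgr2b and Fcgrt, beside 12.6% of all genes, and for Fcgr3 in the lower direction, beside 5.88%.

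Among the 5 members that passed the filter in endothelial-like cells, 0 were called, beside 0.439% of 10239 genes. Of the members, 2 had an unadjusted p under 0.05, Fcgr3 and Fcgrt, and DESeq2 called Fcgr1, which edgeR had filtered out. Across all genes 1435 had an unadjusted p under 0.05. With the block, 1 of the 5 members was called, Fcgr3, beside 4.4% of genes, and 12.4% of genes had an adjusted p under 0.05 at any fold. The activating receptors were low in this class and near the level that its macrophage markers corresponded to. Fcgr3 was measured at 9.69, 9.95 and 4.48 CPM in vehicle and 2.13, 3.50 and 0.804 CPM in ginkgetin, where the summed macrophage markers corresponded to 10.8, 8.80 and 4.16 CPM and 1.07, 2.11 and 0.821 CPM. Fcgr1 had 14, 8 and 4 UMIs in vehicle and 0, 2 and 2 UMIs in ginkgetin, and Fcgr4 was 8.44, 6.13 and 2.69 CPM and 1.42, 4.17 and 1.26 CPM. Differences of Fcgr1, Fcgr3 and Fcgr4 in endothelial-like cells are therefore given as values and not read as expression there.

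The endothelial-like cells of the groups lay mostly in different clusters, so Fcgr2b was also read cluster by cluster. Cluster 0, led by Ehd3, Pde2a and Nrp1, held most cells of ginkgetin replicates 1 and 2, with Fcgr2b at 2768 CPM (910 cells) and 2621 CPM (2205 cells), against 2094 CPM in the 29 cells of vehicle replicate 2. Cluster 4, led by Fabp4 and Lyve1, held most cells of vehicle replicates 1 and 2, with 1664 CPM (1040 cells) and 1788 CPM (455 cells), against 2059 CPM (33 cells) and 2067 CPM (27 cells) in ginkgetin replicates 1 and 2. Within each of these clusters the ginkgetin libraries stayed above the vehicle libraries.

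The clusters of replicate 3 gave a mixed picture. In cluster 7, led by Selenop and Bmp6, Fcgr2b was 1681 CPM in 14 cells of vehicle replicate 3 and 2851 CPM in 952 cells of ginkgetin replicate 3. In cluster 19, where Vwf and Adgrg6 are among the leading genes, the order was turned, with 1413 CPM in 376 vehicle cells and 720.3 CPM in 180 ginkgetin cells. When all endothelial-like cells were clustered again on their own, ginkgetin replicate 3 was above vehicle replicate 3 in both of the kinds named: vascular-like cells held Fcgr2b at 321 CPM (43 cells of vehicle) and 431 CPM (125 cells of ginkgetin), and sinusoidal-like cells at 1579 CPM (363 cells) and 2776 CPM (1010 cells). Cluster 8, led by Wnt2, a gene of central-vein endothelium, held mostly cells of ginkgetin replicates 1 and 2, 264 and 666, in which Fcgr2b was 2430 CPM and 2352 CPM. An unnamed cluster led by Edn1, Adgrg6 and Vwf, genes of larger vessels and capillaries outside the sinusoid, held Fcgr2b at 397 and 379.97 CPM in vehicle replicates 1 and 2 and at 406 and 596 CPM in ginkgetin replicates 1 and 2. Every value of the other 5 clusters lay above those of this cluster.

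**Figure D2:**
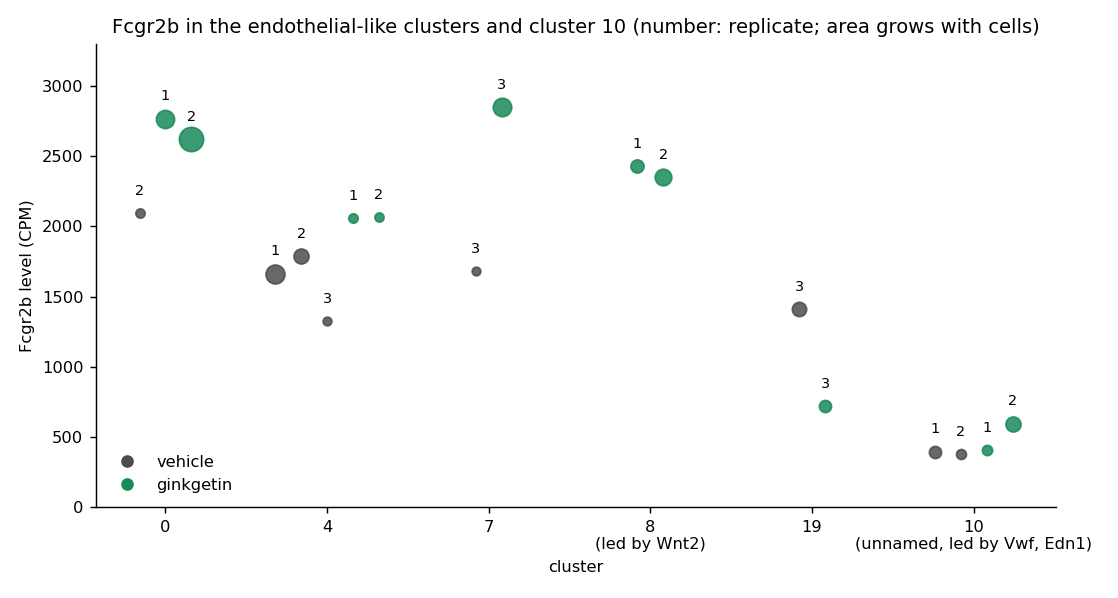
Fcgr2b in CPM on the vertical axis in the endothelial clusters 0, 4, 7, 8 and 19 and the unnamed cluster 10, with a point for each library, its replicate number beside it and an area that grows with the number of cells. Ginkgetin points lie above vehicle points in clusters 0, 4 and 7 and below in cluster 19, where they are 720.3 and 1413 CPM, although sub-clusters of the same libraries have ginkgetin higher.

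The share of endothelial-like cells with an Fcgr2b UMI was near its ceiling, at 93.4 to 94.6% in vehicle and 95.8 to 97.8% in ginkgetin before thinning. Thinned to 1000 UMIs it was 73.8 ± 6.09% in vehicle and 86.1 ± 4.17% in ginkgetin (exact permutation p = 0.1, the smallest possible). T cell-like cells gave a thinned share of 1.10, 1.34 and 1.30% in vehicle and 3.06, 8.70 and 2.30% in ginkgetin, so the background itself was higher in every ginkgetin library. In CPM, Fcgr2b in T cell-like cells was 11.02, 11.9 and 12.6 in vehicle and 28.5, 87.5 and 21.8 in ginkgetin, where the summed endothelial markers corresponded to 11.9, 15.1 and 8.47 CPM and to 39.8, 151 and 27.7 CPM.

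In macrophage-like cells Fcgr2b was 79.4, 62.2 and 116 CPM in vehicle and 46.5, 250.4 and 73.3 CPM in ginkgetin, with overlap (log2 fold change 0.06 ± 0.57, edgeR adjusted p = 0.964). This value had no stable sign: it was -0.995 without ginkgetin replicate 2, -0.09 without vehicle replicate 2 and -0.20 with the replicate block. In Kupffer-like cells alone Fcgr2b was 18.7, 13.7 and 6.51 CPM in vehicle and 31.0, 237 and 53.2 CPM in ginkgetin, without overlap. This did not pass the test in the group-only fit (2.62 ± 0.79, adjusted p = 0.0814) and was called with the replicate block (2.46 ± 0.44, adjusted p = 0.00474), in replicates 1 and 2 only (2.71, adjusted p = 0.0220) and with totals alone (3.08, adjusted p = 0.0427). The endothelial markers present in Kupffer-like cells corresponded to more Fcgr2b than was measured in every library, 64.0, 65.3 and 49.3 CPM in vehicle and 229, 373 and 165 CPM in ginkgetin. A change of Fcgr2b within Kupffer cells and a change of endothelial transcripts among them cannot be told apart from these values. Vehicle NAM-like cells held Fcgr2b at 129, 92.0 and 190 CPM, above every vehicle Kupffer-like value.

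The ratio of Fcgr2b to the activating receptors, counted in UMIs of Fcgr2b over those of Fcgr1, Fcgr3 and Fcgr4 together, is read only for its difference between groups. In macrophage-like cells its log2 was -3.97 ± 0.55 in vehicle and -3.11 ± 1.48 in ginkgetin, with overlap (exact permutation p = 0.6). In Kupffer-like cells it was -6.41, -6.75 and -7.56 in vehicle and -4.73, -1.50 and -4.09 in ginkgetin (exact permutation p = 0.1), without overlap, and the limit given above for Fcgr2b in these cells holds for it too.

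Monocyte-like cells held Fcgr2b at 297, 241 and 266 CPM in vehicle and at 234, 209 and 231 CPM in ginkgetin. The groups did not overlap, by a small margin, and the difference of -0.34 ± 0.23 did not pass the test (edgeR adjusted p = 0.549). In this class 2 of 6 members lay lower in ginkgetin without overlap, Fcgr1 and Fcgr2b, beside 8.73% of genes, and 1 lay higher, Fcgrt, beside 9.13%.

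B cell-like cells, in which Fcgr2b is the receptor that restrains antigen-receptor signalling, held it at 115, 67.8 and 108.5 CPM in vehicle and 92.0, 171 and 127 CPM in ginkgetin, with overlap (0.39 ± 0.33, edgeR adjusted p = 0.636). Of the 6 members, 3 passed the filter in B cell-like cells, none was called by edgeR or DESeq2 and none had an unadjusted p under 0.05. Across all genes 0% of 6968 were called, 859 had an unadjusted p under 0.05 and DESeq2 called 36. The endothelial markers present among them corresponded to 23.8, 27.6 and 19.4 CPM of Fcgr2b in vehicle and to 51.3, 189.6 and 56.3 CPM in ginkgetin, above the measured 171 CPM in ginkgetin replicate 2. The thinned share of B cell-like cells with Fcgr2b was 8.63 ± 2.48% in vehicle and 11.8 ± 3.40% in ginkgetin (exact permutation p = 0.3).

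Fcer1g, the chain shared by the activating Fc gamma receptors and several other myeloid receptors, was 4066, 3837 and 2817 CPM in vehicle macrophage-like cells and 3029, 1998 and 1595 CPM in ginkgetin. Vehicle replicate 3 lay below ginkgetin replicate 1, so the groups overlapped. The log2 fold change was -1.13 ± 0.40 (edgeR adjusted p = 0.0968) in the group-only fit and -1.20 ± 0.25 with the replicate block, where Fcer1g was called (adjusted p = 0.00424). In replicates 1 and 2 only it was -1.07 (adjusted p = 0.0518), and DESeq2 gave -1.18 (adjusted p = 0.0161). Kupffer-like cells held 4142, 4055 and 2673 CPM in vehicle and 2763, 1960 and 1494 CPM in ginkgetin (-1.20 ± 0.41, adjusted p = 0.110, and -1.23, adjusted p = 0.00559, with the block, and -1.19, adjusted p = 0.0185, in replicates 1 and 2 only).

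In Kupffer-like cells 2 of 6 members were called in the group-only fit, Fcgr1 and Fcgr3, beside 6.85% of 8920 genes. With the block 4 of 6 were called, which added Fcer1g and Fcgr2b, beside 14.2%. In replicates 1 and 2 only 5 of 6 were called, beside 998 of 8280 genes. The groups did not overlap for 2 members that were lower in ginkgetin, Fcgr1 and Fcgr3, beside 7.88% of genes, and for 2 that were higher, Fcgr2b and Fcgrt, beside 29.6%. In macrophage-like cells they did not overlap for 2 members lower, again Fcgr1 and Fcgr3, beside 8.56%, and for 1 higher, Fcgrt, beside 33%. The count of higher members is thus below or near the share among all genes, and the count of lower members is above it.

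The difference between classes was tested for Fcer1g itself, with the class by group interaction in edgeR and the library as a term. Fcer1g in endothelial-like cells was 283, 198 and 113 CPM in vehicle and 236, 234 and 119.8 CPM in ginkgetin, and the groups overlapped (log2 fold change -0.19 ± 0.51, adjusted p = 0.946). The change in macrophage-like cells was lower than that in endothelial-like cells by -1.18 ± 0.31 (adjusted p = 0.0297, beside 11.4% of genes with an adjusted p under 0.05), and that in Kupffer-like cells by -1.25 ± 0.27 (adjusted p = 0.0119, beside 10.4%). With totals alone the Kupffer-like difference was -0.84 (adjusted p = 0.0462) and the macrophage-like one -0.74 (adjusted p = 0.0883), which no longer passed. The measured endothelial-like level of Fcer1g was above the 69.2, 59.8 and 22.7 CPM in vehicle and 8.27, 16.01 and 4.35 CPM in ginkgetin that the macrophage markers there corresponded to. The macrophage-like difference of Fcer1g passed in 1 of 6 fits without 1 library, that without vehicle replicate 1, and the Kupffer-like one in all but that without ginkgetin replicate 2 (-0.95, adjusted p = 0.103). In replicates 1 and 2 only they were -1.0003 (adjusted p = 0.0079) and -1.07 (adjusted p = 6.1e-05). For Fcgr2b and Fcgrt no such difference passed the test in the main comparison, with TMM scaling and all kept cells of the 6 libraries. Fcgr2b gave -0.78 (adjusted p = 0.348) in macrophage-like, 1.78 (adjusted p = 0.0565) in Kupffer-like and -0.92 (adjusted p = 0.261) in monocyte-like cells, where 0.135% of genes passed. The Kupffer-like difference of Fcgr2b passed with totals alone (2.19, adjusted p = 0.0233), without the top doublet scores (2.03, adjusted p = 0.0267) and in 2 of 6 fits without 1 library. In replicates 1 and 2 only it was 2.14 (adjusted p = 8.60e-06) and the monocyte-like one -0.80 (adjusted p = 0.0394). Fcgrt gave 0.47 (adjusted p = 0.178, and 0.91, adjusted p = 0.0153, with totals alone) in macrophage-like and 0.26 (adjusted p = 0.515) in Kupffer-like cells.

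Fcer1g in monocyte-like cells was 3656, 3327 and 3059 CPM in vehicle and 3081, 2552 and 2284 CPM in ginkgetin, with overlap (-0.41, adjusted p = 0.587). In NK cell-like cells it was 2663, 2153 and 2155 CPM in vehicle and 1744, 1946 and 1904 CPM in ginkgetin, without overlap (-0.33 ± 0.31, adjusted p = 0.704). The thinned share of cells with Fcer1g was 95.7 ± 2.57% and 77.8 ± 8.78% in macrophage-like cells and 87.6 ± 2.16% and 83.7 ± 1.63% in NK cell-like cells (exact permutation p = 0.1 in both). In T cell-like cells the share lay between 2.25 and 8.10%.

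Fcgrt, the FcRn heavy chain, was the member that rose in macrophage-like cells. It was 114, 114 and 118 CPM in vehicle and 254, 356 and 479 CPM in ginkgetin, 115 ± 2.24 against 363 ± 113 CPM, and every ginkgetin library lay above every vehicle library. The log2 fold change of Fcgrt was 1.16 ± 0.21 (edgeR adjusted p = 0.0175), 1.15 with the replicate block (adjusted p = 0.00172) and 0.98 in replicates 1 and 2 only (adjusted p = 0.0197, under a fold of 2). With totals alone it was 1.67 (adjusted p = 0.0116), and without 1 library at a time it lay between 0.96 and 1.22 with a call in 2 of 6 fits, those without vehicle replicate 3 or ginkgetin replicate 1. When each cell was named by its own markers Fcgrt stood at 1.14 (adjusted p = 0.0548).

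Vehicle NAM-like cells held Fcgrt at 95.03, 94.5 and 113 CPM, and those of ginkgetin replicate 3 at 241 CPM. In the cluster led by Fabp7 and Folr2 it was 125 and 133 CPM in vehicle replicates 1 and 2. Ginkgetin replicate 2 had 335 CPM there in 17 cells. In that led by Ms4a7 and Pf4 vehicle had 96.6 and 96.0 CPM and ginkgetin 170 and 250 CPM, in replicates 1 and 2. In that led by Cd300c2 it was 113 against 236 CPM in replicate 3. In that led by Cd163 and Cxcl13 vehicle replicate 2 had 172 CPM and the ginkgetin replicates 273, 333 and 949 CPM. The part of class makeup was not tested. In Kupffer-like cells alone Fcgrt was 137, 146 and 125 CPM in vehicle and 252, 320.06 and 523 CPM in ginkgetin, without overlap. It did not pass the test there (0.97 ± 0.26, edgeR adjusted p = 0.0634), had an adjusted p of 0.0199 below a fold of 2 with the block, and was called with totals alone (1.45, adjusted p = 0.0306). The endothelial markers in Kupffer-like cells corresponded to 13.8, 14.2 and 13.7 CPM of Fcgrt in vehicle and 46.7, 83.2 and 53.2 CPM in ginkgetin, all below the measured values, unlike for Fcgr2b.

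Shares of cells with Fcgrt turned on depth. Before thinning they were 56.4, 50.8 and 71.6% of macrophage-like cells in vehicle and 52.0, 51.2 and 69.2% in ginkgetin, and thinned to 1000 UMIs they were 10.7 ± 0.35% and 30.3 ± 8.27% (exact permutation p = 0.1). In Kupffer-like cells the thinned shares were 12.5 ± 0.36% and 30.7 ± 9.10%, against 65.3, 56.2 and 81.2% and 48.3 to 69.0% before thinning. T cell-like cells gave a thinned share of at most 1.35% in vehicle and 4.44% in ginkgetin.

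Fcgrt was also higher in every ginkgetin library of the endothelial-like class, at 360.05, 393 and 394 CPM in vehicle and 543, 567 and 795 CPM in ginkgetin, a ratio of means of 1.66. The difference did not pass the test in the group-only fit (0.54 ± 0.19, edgeR adjusted p = 0.284), had an adjusted p of 0.0420 with the block (0.55 ± 0.14, under a fold of 2) and stood at 0.39 in replicates 1 and 2 only (adjusted p = 0.0990). By cluster, Fcgrt was 398 CPM in vehicle replicate 2 against 510 and 540 CPM in ginkgetin replicates 1 and 2 in cluster 0. In cluster 4 it was 359, 387 and 221 CPM in the vehicle libraries and 458 and 366 CPM in ginkgetin replicates 1 and 2, which overlapped. In cluster 7 it was 660 and 899 CPM in replicate 3 of vehicle and of ginkgetin, and in cluster 19 it was 388 and 318 CPM. Cluster 8, the Wnt2-led cluster, held Fcgrt at 651 and 651 CPM in ginkgetin replicates 1 and 2. The higher endothelial markers of the ginkgetin class, given with Fcgr2b, stand beside Fcgrt too, and their part was not tested.

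In monocyte-like cells Fcgrt was 28.9, 31.0 and 36.95 CPM in vehicle and 54.1, 95.5 and 61.9 CPM in ginkgetin, without overlap (1.06 ± 0.28, edgeR adjusted p = 0.244, and 0.99, adjusted p = 0.0666, with the block). The endothelial markers there corresponded to 2.52, 2.69 and 1.38 CPM in vehicle and 9.45, 34.0 and 5.35 CPM in ginkgetin. In B cell-like cells Fcgrt was 25.03, 22.1 and 44.4 CPM in vehicle and 18.7, 49.8 and 47.6 CPM in ginkgetin, with overlap.

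**Figure D3:**
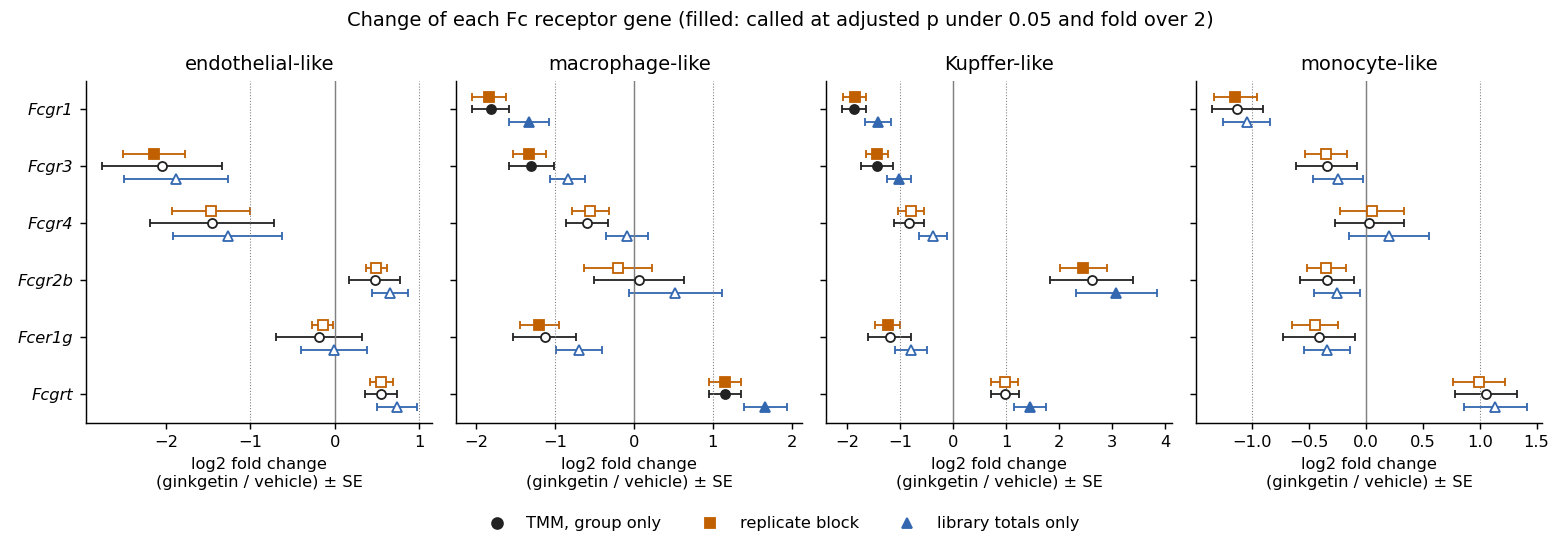
Log2 fold change of ginkgetin over vehicle, with its SE, for the 6 genes in endothelial-, macrophage-, Kupffer- and monocyte-like cells under 3 fits: TMM with group only (circles), with the replicate block (squares) and with library totals only (triangles). Filled symbols are called genes; in macrophage-like cells Fcgr1 at -1.82, Fcgr3 at -1.30 and Fcgrt at 1.16 are filled circles.

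**Figure D4:**
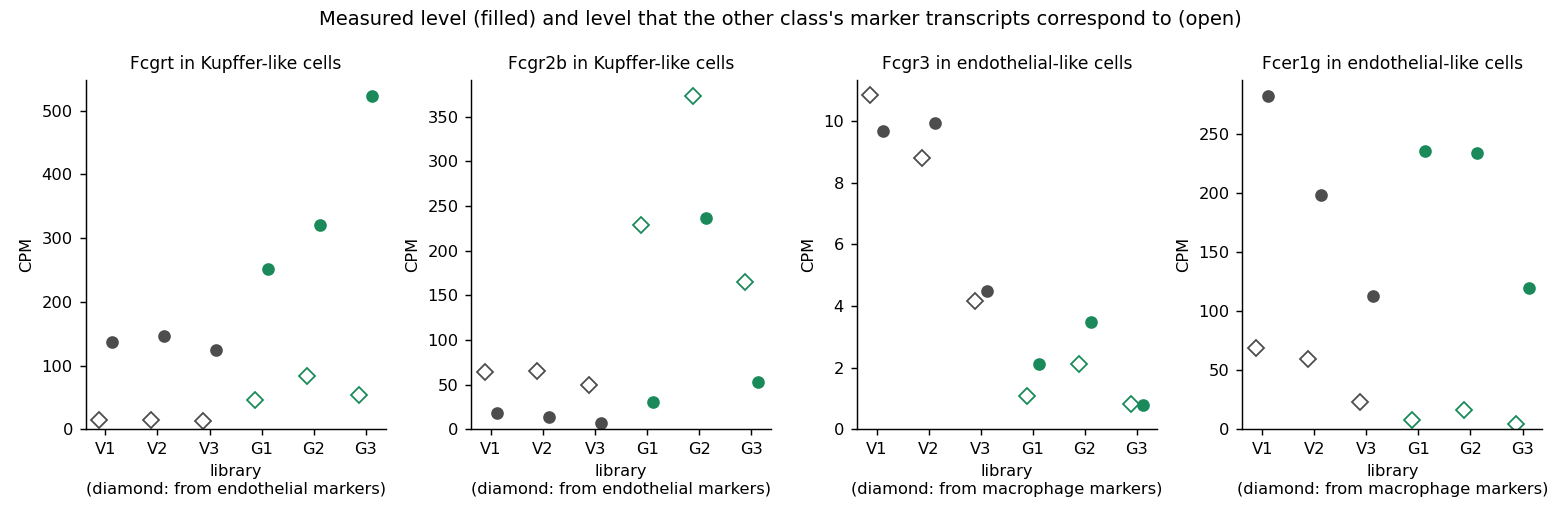
Measured CPM (filled) beside the CPM that the summed markers of the other class correspond to (open diamonds) in vehicle (V) and ginkgetin (G) replicates 1 to 3. Fcgrt in Kupffer-like cells lies above its diamonds and Fcgr2b below them, while in endothelial-like cells Fcgr3 lies near its diamonds and Fcer1g above them.

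Over all kept cells together the members separated widely, but a level over all cells joins how many cells a class holds with how much each cell expresses, and these cannot be told apart there. Fcgr1 was 146, 142 and 182 CPM in vehicle and 9.26, 6.83 and 18.1 CPM in ginkgetin, and Fcgr2b was 243, 207 and 210 CPM and 695, 959 and 911 CPM. In the edgeR fit on these sums 6 of 6 members were called, beside 12.8% of 14240 genes, and under the UMI filter 0 of 6 members and 0 genes were called, with 1724 genes at an unadjusted p under 0.05.

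The class that held the transcripts of each gene differed between the groups, and not always as the class sizes did: the monocyte-like share of cells was lower in ginkgetin while its share of Fcgr1 UMIs was higher, which turned to 11.3 points lower under the UMI filter. Endothelial-like cells held 58.6 ± 5.14% of Fcgr2b UMIs in vehicle and 90.7 ± 3.98% in ginkgetin, and 30.6% and 76.8% of Fcgrt UMIs. Macrophage-like cells held 41.7% of Fcgrt UMIs in vehicle and 6.27% in ginkgetin, and 61.3% and 20.1% of Fcer1g UMIs. For Fcgr1 the macrophage-like share was 76.5 ± 5.08% in vehicle and 49.5 ± 23.4% in ginkgetin, with overlap (exact permutation p = 0.3), and the monocyte-like share was 14.6% and 40.5% (exact permutation p = 0.1). For Fcgr3 the macrophage-like share was 73.9% and 38.1%, and for Fcgr4 it was 79.7% and 59.7%, with overlap (exact permutation p = 0.2). Under the UMI filter these macrophage-like shares turned and were higher in ginkgetin, by 15.8 points for Fcgr1, 6.40 for Fcgr3, 29.96 for Fcgr4 and 12.1 for Fcgrt. The endothelial-like shares then differed by only 8.58 points for Fcgr2b (exact permutation p = 0.5) and 4.22 for Fcgrt (exact permutation p = 0.7), in place of 32.2 and 46.2, and the macrophage-like share of Fcer1g by -0.888 points (exact permutation p = 0.8) in place of -41.3. The differences in these shares therefore depend on the cell filter.

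**Figure D5:**
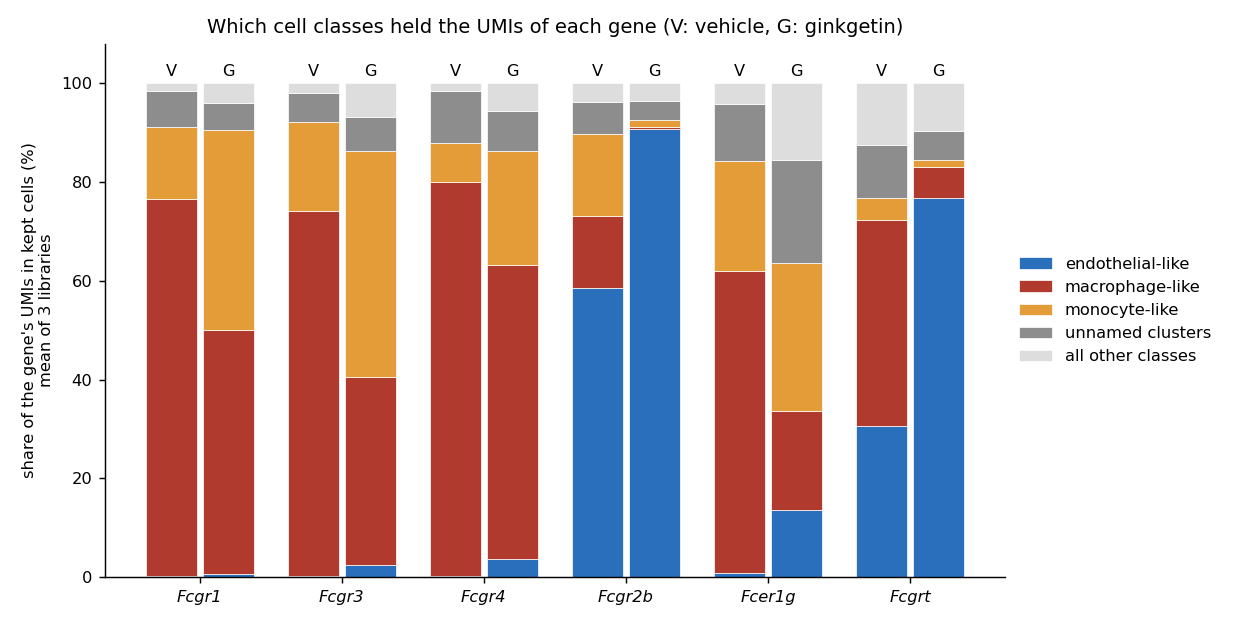
Percent of the UMIs of each gene, on the vertical axis, held by each class in vehicle (V) and ginkgetin (G) cells, as the mean of 3 libraries in stacked bars from 0. Fcgr2b moves from 58.6 to 90.7% in endothelial-like cells, and Fcgr1 from 76.5 to 49.5% in macrophage-like cells, under the filter on detected genes; under the UMI filter the former difference shrinks to 8.58 points and the latter turns.

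Genes that work beside the receptors were read from 6 lists of 58 genes, of which 55 were in the tables: ITAM effectors, ITIM effectors, other adaptors and receptors that use Fcer1g, other Fc receptors, the FcRn partner and recycling genes, and the ligands. In macrophage-like cells the median log2 fold change was 0.20 over 14 tested ITAM effectors, -0.01 over 8 ITIM effectors, -0.14 over 7 users of Fcer1g, 0.14 over 4 other Fc receptors and -0.17 over 6 FcRn genes, beside 0.02 over all genes. None of the FcRn partner and recycling genes was called there, and the lone ligand gene tested, Alb, a hepatocyte gene, stood at -0.50. The IgG and kappa chain genes had UMIs in these cells only in replicate 3 of both groups and were not tested, so nothing is read from the list about IgG.

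Of the list genes, 6 of 40 tested were called in macrophage-like cells, beside 12.1% of all genes, and 1 of 28 in endothelial-like cells, beside 0.439%. With the replicate block the counts were 7, beside 17.1%, and 2, beside 4.4%. The ITAM effector Lat2, an adaptor of immune receptors, fell from 66.0, 81.3 and 90.5 CPM to 6.20, 24.5 and 27.0 CPM in macrophage-like cells (-2.43, edgeR adjusted p = 0.0122). Of the ITIM effectors, Dok1 fell from 58.6, 49.1 and 60.4 CPM to 34.1, 33.9 and 39.1 CPM (-1.13, adjusted p = 0.0138). Of the users of Fcer1g, Pira2 rose from 42.0, 44.6 and 48.5 CPM to 161, 162 and 234 CPM (1.57, adjusted p = 0.00918) and Clec4d, a C-type lectin receptor, fell from 30.9, 36.5 and 25.5 CPM to 18.6, 16.9 and 6.75 CPM (-1.82, adjusted p = 0.0441). Of the other Fc receptors, Trim21, the cytosolic antibody receptor, rose from 5.996, 6.03 and 9.90 CPM to 18.6, 16.9 and 28.9 CPM (1.11, adjusted p = 0.0466, a call lost with DESeq2 at 0.0662 and in replicates 1 and 2 only at 0.0864) and Fcrls fell from 9.99, 17.8 and 27.4 CPM to 0, 0 and 5.31 CPM (-3.09, adjusted p = 0.0359). The other 5 of these genes were also called by DESeq2 and in replicates 1 and 2 only, but none of the 6 was called when replicate 2 of either group or vehicle replicate 1 was left out, and Clec4d was also lost without ginkgetin replicate 1 or 3, Fcrls without ginkgetin replicate 1 and Trim21 without ginkgetin replicate 1 or 3. With totals alone Dok1, Clec4d and Fcrls were not called. Pira2 belongs to a family of near-identical genes, so its count is uncertain. With totals alone the counts were 2 higher and 1 lower among ITAM effectors, 1 higher among ITIM effectors, 1 higher among users of Fcer1g and 1 higher among other Fc receptors.

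In Kupffer-like cells the replicate block called 4 of 38 tested list genes, beside 14.2% of all genes, and DESeq2 called 3, beside 860 of 16136 genes. The group-only fit called 1 of 38, beside 6.85% of all genes. It was Rac2, a GTPase of the phagocyte oxidase and an ITAM effector here, which fell from 529, 486 and 479.7 CPM to 267, 318 and 301 CPM (-1.17, edgeR adjusted p = 0.0300), a call that the totals-only fit did not keep and that replicates 1 and 2 only gave as well (-1.20, adjusted p = 0.00943). The call of Rac2 was lost under the UMI filter, with 2 vehicle libraries, and in every fit without 1 library but that without vehicle replicate 3. In endothelial-like cells the single called list gene was the ubiquitin ligase Cblb of the ITIM list, which fell from 32.2, 29.1 and 43.0 CPM to 15.9, 13.5 and 19.9 CPM (-1.24, adjusted p = 0.0429) and was called in replicates 1 and 2 only (-1.27, adjusted p = 0.0147) but not with totals alone, under the UMI filter, with the marker gate, without the gene filter or without any 1 of the 6 libraries. The list medians in endothelial-like cells were -0.22 over 8 ITAM effectors, 0.09 over 7 ITIM effectors, -0.91 over 3 users of Fcer1g, 0.56 over 3 other Fc receptors and -0.12 over 6 FcRn genes, beside -0.0032 over all genes.

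In monocyte-, NK cell- and B cell-like cells edgeR called 0 of the list genes. At an unadjusted p under 0.05 there were 7 of 38 tested in monocyte-like cells (1111 of 8225 over all genes), 3 of 24 in NK cell-like cells (353 of 3572) and 4 of 32 in B cell-like cells (859 of 6968), and DESeq2 called 3 in monocyte-like cells and 0 in NK cell- or B cell-like cells. The block on replicate number also gave 3 called list genes in monocyte-like cells. Over all genes DESeq2 called 123 of 15644 there and the block 125 of 8225.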

How the data were processed

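Single-cell RNA-seq of liver non-parenchymal cells from 3 vehicle and 3 ginkgetin libraries was analysed. The authors deposited a table of raw UMI counts per gene and cell for each library, on GRCm38/mm10 per the labels' processing notes; the aligner and gene annotation are not given in the sources used here. The labels' extraction text describes bulk RNA kits, while the study's methods describe 10x Chromium libraries. The members and gene lists were chosen with earlier results of these data known. Named list genes were those called in endothelial- or macrophage-like cells, at most 3 per list, class and direction, and Rac2 of the Kupffer-like cells was added after its value was seen.

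Cells were clustered with scanpy 1.11.5 (2000 variable genes without the 6 members, 30 components, 15 neighbours, Leiden resolution 1). A marker counted at 25% of cells and 2-fold over the rest. UMI counts were summed per library and class with 10 or more cells and fitted with edgeR 4.0.16 (TMM, filterByExpr, group) in R 4.3.3, after a check on simulated counts. DESeq2 1.42.0, totals only, no gene filter, a replicate block, a barcode-set block, the UMI filter (16821 cells), a per-cell marker gate, removal of the top 5% of doublet scores and leaving out each library were alternatives. Same-numbered libraries deviated together in endothelial-like (correlations 0.67, 0.63 and 0.91) and macrophage-like cells (0.40, 0.44 and 0.78). Replicates 1 and 2 correlated across numbers to a similar degree, at 0.66 and 0.61 in endothelial-like cells. The labels give no pairing, so the replicate block is an alternative fit and not a known design. Single values were compared with exact permutation tests over libraries. Depths of 13128697 to 61796882 UMIs set the precision, and intervals cover counting error only. Protein sequences were not used here.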

Additional observations from a re-analysis of the deposited data

Results flagged for a closer look

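The change of Fcer1g with ginkgetin differed between macrophage-like and endothelial-like cells by -1.18 ± 0.31 on the log2 scale (edgeR interaction, adjusted p = 0.0297). Between Kupffer-like and endothelial-like cells it differed by -1.25 ± 0.27 (adjusted p = 0.0119). Both results were singled out because the difference between classes itself passed a test. The macrophage-like one lost its call with totals only (-0.74, adjusted p = 0.0883) and in 5 of 6 fits without 1 library, and the Kupffer-like one in 1 of 6. The means were 3573 and 2207 CPM in macrophage-like cells of vehicle and ginkgetin, and 198 and 196 CPM in endothelial-like cells. Median depth in macrophage-like cells was 7589 to 16283 UMIs in vehicle and 1918 to 2331 UMIs in ginkgetin, and its part in this difference was not tested.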

How the results depend on the processing

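Over 822 alternative values of 64 results, 727 were scored as the same as the main value, and 52 results never changed sign. For shares and ratios the exact permutation p cannot go under 0.05 with these libraries. Only a change of direction could therefore count against them. Counts of called members have no direction, and 4 in place of 3 was scored as the same. The replicate block pairs libraries by number, a pairing that the labels do not give. With this block, 1 member was called in endothelial-like and 1 in monocyte-like cells in place of 0. It moved the count from 3 to 4 in macrophage-like and from 2 to 4 in Kupffer-like cells, and changed no call in NK cell- or B cell-like cells. The barcode-set block and DESeq2 gave the same counts of 1 and 1, replicates 1 and 2 only gave 2 in endothelial-like cells, and no gene filter gave 1 in NK cell-like cells. In macrophage-like cells the marker gate left 1 of 3 calls, and leaving out 1 library gave 0 to 3, namely 0 when vehicle replicate 1 or 2 or ginkgetin replicate 2 was left out and 1 without ginkgetin replicate 3. In Kupffer-like cells the UMI filter, which left 2 vehicle libraries, gave 0 of 2 calls. Replicates 1 and 2 only gave 5 there and totals only gave 4, while leaving out 1 library gave 0 to 3. In endothelial-like cells leaving out a library gave 0 to 0.

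Fcer1g in endothelial-like cells reversed to 0.13 under the gate, and to 0.22 without vehicle replicate 1 and 0.14 without ginkgetin replicate 3 (range -0.53 to 0.22). Fcgr2b in macrophage-like cells reversed to -0.20 with the replicate block, -0.27 under the UMI filter, -0.027 without the top doublet scores, -0.041 under the gate, -0.09 without vehicle replicate 2 and -0.995 without ginkgetin replicate 2 (range -0.995 to 0.35). The macrophage-like against endothelial-like difference of Fcer1g was -0.74 with totals only and -1.40 to -0.81 without 1 library, losing its call in 5 of 6. That of Fcgr2b was 0.062 in replicates 1 and 2 only, and that of Fcgrt 0.91 with totals only, where it passed. The unthinned Fcgrt share of cells differed by -2.10 points in macrophage-like and -11.8 in Kupffer-like cells. Under the UMI filter the macrophage-like shares of UMIs differed by 15.8 (Fcgr1), 6.40 (Fcgr3), 29.96 (Fcgr4) and 12.1 (Fcgrt) points, and the monocyte-like ones by -11.3, -10.7 and -11.2 points for Fcgr1, Fcgr3 and Fcgr4. The causes were not tested. Neutrophil-like cells gave no test under any alternative at the minimum of 10 cells per library.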

Other observations

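An unnamed myeloid cluster of 95 cells, 93 of them from vehicle replicate 1, was led by Fcgr4 and the patrolling monocyte gene Cd300e. It held Fcgr4 at 4137 CPM and Fcer1g at 9530 CPM, beside Fcgr1 at 174 CPM, Fcgr3 at 128 CPM and Fcgr2b at 7.26 CPM. The highest named value of Fcgr4 in vehicle replicate 1 was 589.9 CPM, in Kupffer-like cells. The cluster was singled out after its values were seen and comes almost wholly from 1 library, so no comparison between groups is possible.

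A pair of unnamed clusters of 402 and 311 cells led by NK receptor genes such as Klre1 and Klra7 held Fcer1g at 1250 to 1892 CPM.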
